A study of Mus musculus with 8 samples.

Results

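Genes by which mouse sebaceous glands make and store their lipids were examined in whole skin of Nampt-cKO mice. They were 10 genes named in a list, Scd1, Scd3, Elovl3, Fa2h, Far2, Awat2, Dgat2, Soat1, Plin2 and Mc5r, and each was looked up by its exact name among the 36333 genes of the table of read counts. The name was found for 9 of them, and all 9 had enough reads to be tested. Plin2 had no entry under its plain name and was carried as 2 entries, Plin2_1 and Plin2_2, which are described beside the 9 and are not counted with them.

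The sebaceous gland sits beside the hair follicle, and its cells, the sebocytes, fill with lipid droplets and then burst to release sebum. Mouse sebum is rich in wax esters, wax diesters, triglycerides and sterol esters. In outline, stearoyl-CoA desaturases and elongases shape the fatty acids, reductases turn some of them into fatty alcohols, and acyltransferases join acids to alcohols, glycerol or cholesterol. The melanocortin 5 receptor is a receptor of exocrine glands, including the sebaceous gland, that responds to the peptides made from proopiomelanocortin.

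The control group was 4 libraries from male C57BL/6J mice of the genotype Nampt flox/flox. The Nampt-cKO group was 4 libraries from male C57BL/6J mice of the genotype Nampt flox/flox; KRT5-CreERT2+, in which Cre, driven by keratin 5 control sequences, acts in basal cells of the epidermis and its appendages after tamoxifen. All 8 samples are labelled 8-week-old, both groups carry the floxed allele, and the labels give tamoxifen (100 μg per g body weight, injected into the peritoneum) for the Nampt-cKO samples only. The study's methods state tamoxifen for the controls of its UVB experiment, and its time line covers tamoxifen and sampling of both groups, but neither says outright that the controls of these libraries were injected. If they were not, genotype and tamoxifen cannot be told apart. The skin was taken on Day 19 of the study's time line, and whole skin holds dermis, fat, muscle and immune cells beside keratinocytes and glands.

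The 8 libraries held 39390895 to 53762935 exon reads. Of 17286 genes tested, 7905 (45.7%) passed edgeR's quasi-likelihood test at a Benjamini-Hochberg (BH) adjusted p under 0.05, 3796 (22.0%) lower and 4109 (23.8%) higher in Nampt-cKO skin. Nampt, the targeted gene, was at 77.7, 72.9, 71.0 and 60.4 CPM (exon read counts scaled to library size, TMM-normalized) in controls 1 to 4 against 32.3, 37.5, 76.1 and 49.6 CPM in Nampt-cKO replicates 1 to 4 as labelled. The library labelled Nampt-cKO replicate 3 sat at control level for Nampt, and the log2 fold change over all 8 libraries was −0.53 (standard error 0.24, edgeR, BH-adjusted p = 0.0974). Leaving that library out gave −0.83 (edgeR, BH-adjusted p = 0.00284, the lowest of a range over all alternatives of 0.00284 to 0.216), and the 6 genes named next were lower with or without it.

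Of the 9 genes, 6 were lower and 0 higher in Nampt-cKO skin, and 3 did not pass, where 22.0% of all genes tested were lower. Scd3, Far2, Dgat2, Mc5r, Fa2h and Scd1 were the 6, and in each of them every Nampt-cKO library lay below every control, which held for 22.4% of all genes tested (45.3% in either direction). The median log2 fold change of the 9 was −1.99, beside −0.01 over all genes tested. In bulk skin, fewer sebocytes, less RNA per sebocyte and a change in other cells that share these genes cannot be told apart.

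**Figure D1:**
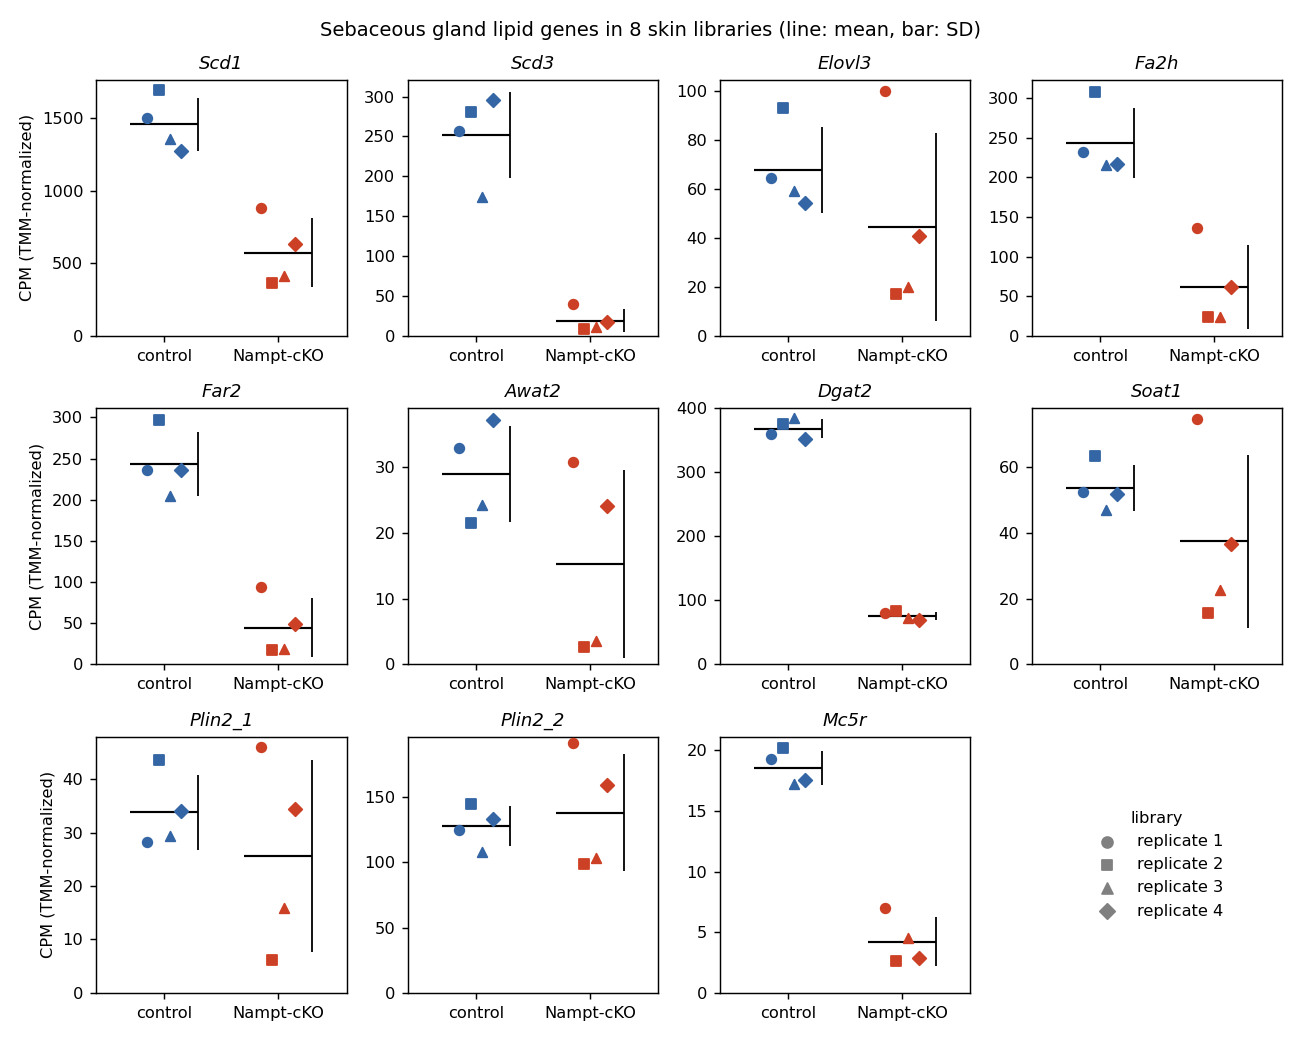
CPM (TMM-normalized) of the 9 genes and of both Plin2 entries in each of 4 control (blue) and 4 Nampt-cKO (red) libraries, with a marker shape for each replicate number, the group mean as a line and the SD as a bar. Dgat2 stayed between 69.5 and 82.8 CPM in all Nampt-cKO libraries, while Elovl3 and Soat1 in Nampt-cKO replicate 1 were above every control.

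The desaturases come first in the chain. Scd1 and Scd3 both put a double bond into saturated fatty acids, and Scd3 is known in the mouse as a form of the sebocyte. Both lie on chromosome 19 of GRCm38, Scd3 from 44203288 to 44244016 and Scd1 from 44394450 to 44407709. Since reads from such copies can be hard to assign, a stretch of each coding sequence is shown where they differ most, with the bases that differ in capitals. It covers bases 295 to 354 of the Scd1 coding sequence and 307 to 366 of that of Scd3 (GENCODE M21), each read in the direction of its own gene.
Scd1: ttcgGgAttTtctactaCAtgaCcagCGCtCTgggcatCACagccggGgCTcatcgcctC
Scd3: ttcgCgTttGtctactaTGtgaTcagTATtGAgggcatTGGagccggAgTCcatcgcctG
The stretches differ at 18 of 60 bases. Over 1068 aligned coding bases, 977 (91.48%) were identical, and the longest run without a difference was 185 bases.

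Scd1 was the most abundant of the 9 genes, at 1502, 1699, 1360 and 1279 CPM in controls 1 to 4 and at 882, 364, 415 and 634 CPM in Nampt-cKO replicates 1 to 4. All 4 Nampt-cKO libraries were below all controls. Its mean fell from 1460 ± 184 to 574 ± 236 CPM (SD, n = 4), 39.3% of the control mean, and the log2 fold change was −1.35 (standard error 0.26, edgeR, BH-adjusted p = 0.00229).

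Scd3 had 257, 280, 175 and 296 CPM across controls, against 40.1, 8.84, 10.97 and 17.6 CPM across Nampt-cKO libraries. This was the largest fall of the 9, and the highest Nampt-cKO library was still far below the lowest control. The mean went from 252 ± 54.0 to 19.4 ± 14.3 CPM (SD, n = 4), 7.7% of control, and the log2 fold change was −3.70 (standard error 0.47, edgeR, BH-adjusted p = 0.000253). Between 24.0% and 27.6% of Scd3 exon reads were unique to it in control libraries and between 33.7% and 42.8% in Nampt-cKO libraries. For Scd1 the share was 100.0% in both groups. Of the distinct 50-base stretches in Scd3 transcripts, 6.57% were shared with other genes, Scd1 among them. Why most Scd3 reads were not unique was not tested. With unique exon reads alone the value was −3.13 on the log2 scale (edgeR, BH-adjusted p = 0.000698, in a range over all alternatives of 1.91e-10 to 0.00143). Introns held 9.07% to 10.5% of the reads of Scd3 in controls and 19.7% to 49.2% in Nampt-cKO libraries, so the share was higher in every Nampt-cKO library. Over all genes the intron share was also higher in every Nampt-cKO library. It was 10.8% to 11.8% in controls and 12.7% to 16.5% in Nampt-cKO libraries.

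Scd3 fell further than Scd1. Its RPKM, the deposited exon reads scaled to exon length and depth, was 23.8%, 23.0%, 17.9% and 32.3% of that of Scd1 in controls 1 to 4, and 6.34%, 3.38%, 3.68% and 3.87% in Nampt-cKO replicates 1 to 4. The log2 ratio of Scd3 to Scd1 was −2.08 ± 0.35 in controls and −4.58 ± 0.41 in Nampt-cKO skin (SD, n = 4), and the difference of −2.50 gave an exact two-sided permutation p = 0.0286, the smallest that 4 against 4 libraries allow. With unique exon reads only, the difference was −1.93 (exact permutation p = 0.0286), and the level of Scd3 was lower in both groups. Per exon length it was then 5.98%, 6.34%, 4.29% and 8.6% of Scd1 in controls 1 to 4. In Nampt-cKO replicates 1 to 4 it was 2.42%, 1.33%, 1.24% and 1.66%. Scd2, a desaturase found in many tissues, went the other way, from 203, 207, 206 and 165 CPM in controls to 309, 435, 498 and 335 CPM in Nampt-cKO libraries, a log2 fold change of 1.01 (standard error 0.16, edgeR, BH-adjusted p = 0.000723). Scd4 was near 1 CPM in both groups, at 1.58 ± 0.22 and 1.12 ± 0.36 CPM (SD, n = 4), and did not pass the test (edgeR, BH-adjusted p = 0.267).

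**Figure D2:**
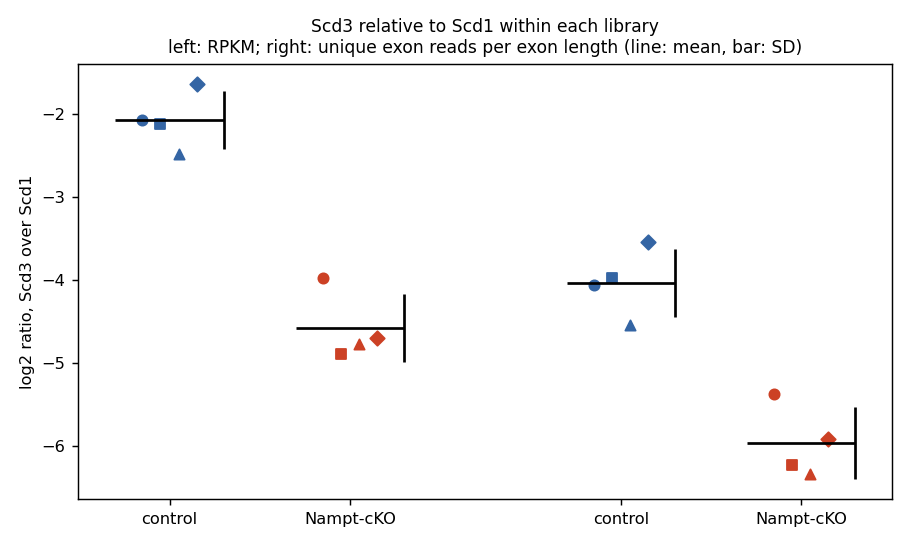
Log2 ratio of Scd3 to Scd1 in each control (blue) and Nampt-cKO (red) library, on the left from RPKM and on the right from unique exon reads per exon length, with mean (line) and SD (bar). The groups do not overlap on either scale, and the means differ by −2.50 and −1.93.

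The promoter of Scd3, as given by RefSeq, is printed with those of Far2 and Plin2, because the former pair held the largest falls among the 9 genes and Plin2 did not pass the test. RefSeq promoters, 250 bases before to 50 after a gene's start, were on hand for 5 of the 10 listed genes, Scd3, Awat2, Soat1, Far2 and Plin2. The windows (build GRCm38.p6, 5′ to 3′ on the gene's strand) are chr19:44203038-44203337 on the plus strand for Scd3, chr6:148047166-148047465 on the plus strand for Far2 and chr4:86670010-86670309 on the minus strand for Plin2, and capitals mark the motif matches.
Scd3: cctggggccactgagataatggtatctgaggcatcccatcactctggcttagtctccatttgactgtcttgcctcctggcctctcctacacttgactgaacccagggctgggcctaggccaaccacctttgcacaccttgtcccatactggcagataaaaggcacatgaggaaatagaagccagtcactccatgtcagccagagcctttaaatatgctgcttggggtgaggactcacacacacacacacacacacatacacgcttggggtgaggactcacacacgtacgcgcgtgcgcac
Far2: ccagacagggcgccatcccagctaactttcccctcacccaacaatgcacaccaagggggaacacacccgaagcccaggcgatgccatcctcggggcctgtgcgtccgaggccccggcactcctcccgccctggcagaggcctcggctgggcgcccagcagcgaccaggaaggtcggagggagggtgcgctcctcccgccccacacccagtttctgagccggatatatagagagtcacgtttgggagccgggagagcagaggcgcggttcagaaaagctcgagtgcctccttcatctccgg
Plin2: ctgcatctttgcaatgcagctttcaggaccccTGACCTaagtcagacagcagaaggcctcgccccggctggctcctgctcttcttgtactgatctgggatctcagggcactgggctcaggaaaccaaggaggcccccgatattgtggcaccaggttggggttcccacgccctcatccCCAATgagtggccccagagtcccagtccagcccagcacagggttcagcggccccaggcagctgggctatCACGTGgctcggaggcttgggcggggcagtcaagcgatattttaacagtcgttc
The letters searched on both strands were AGGTCA, a half-site of nuclear receptors such as PPARγ, a direct repeat of AGGTCA spaced by 1 base, TCACNCCAC, a site of the sterol factor SREBP, the E-box CACGTG, the CCAAT box and TATAAA. None of them was in the windows of Scd3 or Far2. Plin2 held an AGGTCA half-site on the minus strand 218 bases before its start, a CCAAT box 73 bases before it and CACGTG 4 bases before it. Awat2, which has 2 RefSeq starts, and Soat1 had the CCAAT box in each window and none of the others. Among 32851 mouse promoters of the same length, 16.26% held AGGTCA, 0.04% the repeat, 1.24% TCACNCCAC, 7.15% CACGTG, 37.41% CCAAT and 13.62% TATAAA. These matches describe the letters and are not evidence of binding.

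Other enzymes shape the acyl chains. Fa2h, the fatty acid 2-hydroxylase (chromosome 8 from 111345138 to 111393821), was at 232, 308, 215 and 216 CPM in controls and at 136, 23.8, 23.7 and 61.8 CPM in Nampt-cKO libraries. The groups did not overlap, and the Nampt-cKO libraries spread 5.74-fold among themselves beside 1.43-fold in controls. Its log2 fold change was −1.99 (standard error 0.52, edgeR, BH-adjusted p = 0.0118), with a mean at 25.2% of control.

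Elovl3, an elongase of very long chain fatty acids in sebaceous glands and brown fat (chromosome 19 from 46131899 to 46135694), had 64.5, 93.0, 59.0 and 54.1 CPM in controls. The Nampt-cKO libraries held 99.8, 17.0, 20.1 and 40.7 CPM, so replicate 1 was above every control and the other 3 were below every control. Over all 8 libraries the log2 fold change was −0.61 (standard error 0.50, edgeR, BH-adjusted p = 0.352) and did not pass the test. Without Nampt-cKO replicate 1 it was −1.39 (edgeR, BH-adjusted p = 0.00581, in a range over all alternatives of 0.00581 to 0.599).

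Wax needs fatty alcohols and an acyltransferase that joins them to acids. Far2, the fatty acyl-CoA reductase that makes the alcohols (chromosome 6 from 148047011 to 148182760), had 236, 297, 204 and 236 CPM in controls and 93.6, 17.7, 18.8 and 49.0 CPM in Nampt-cKO libraries. Every Nampt-cKO library was below every control. The log2 fold change was −2.44 (standard error 0.50, edgeR, BH-adjusted p = 0.00327), to 18.4% of the control mean. Far2 overlaps Ergic2 on the opposite strand at its 3′ end, and whether the counting used strand is not given in the sources used here. Ergic2 itself was higher in Nampt-cKO skin (log2 fold change 0.49, edgeR, BH-adjusted p = 0.00219). Far1, the related reductase of many tissues, was at 75.8 ± 13.5 CPM in controls and 93.0 ± 19.4 CPM in Nampt-cKO skin (SD, n = 4) and did not pass the test (log2 fold change 0.29, edgeR, BH-adjusted p = 0.179).

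Awat2, an acyltransferase that makes wax esters (chromosome X from 100402221 to 100494221), was at 32.9, 21.5, 24.2 and 37.2 CPM in controls and at 30.8, 2.66, 3.51 and 24.1 CPM in Nampt-cKO libraries. Replicates 1 and 4 of the Nampt-cKO group lay within the control range, and replicates 2 and 3 were far below it, a spread of 11.6-fold. With this spread the log2 fold change of −0.93 (standard error 0.69, edgeR, BH-adjusted p = 0.304) did not pass the test. Awat1, its relative on the same chromosome, had 63.8, 71.2, 55.9 and 64.0 CPM in controls and 77.3, 11.7, 20.7 and 64.1 CPM in Nampt-cKO libraries. The order was that of Awat2, with replicate 1 above and replicate 4 within the control range, and its log2 fold change of −0.55 did not pass the test either (edgeR, BH-adjusted p = 0.394).

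Triglycerides and sterol esters are made by Dgat2 and Soat1. Dgat2, which adds the last acyl chain of triglycerides (chromosome 7 from 99153663 to 99182713), was at 360, 376, 385 and 353 CPM in controls and at 79.8, 82.8, 72.9 and 69.5 CPM in Nampt-cKO libraries. It was the steadiest of the 9 genes within the Nampt-cKO group, with the highest library 1.19-fold above the lowest. The mean fell from 368.5 ± 14.4 to 76.2 ± 6.11 CPM (SD, n = 4), 20.7% of control, and the log2 fold change was −2.27 (standard error 0.08, edgeR, BH-adjusted p = 1.36e-06). Dgat1, which catalyses the same step but is an unrelated protein, was at 55.0 ± 4.99 CPM in controls and 52.1 ± 14.1 CPM in Nampt-cKO skin (SD, n = 4), a log2 fold change of −0.08 (standard error 0.18, edgeR, BH-adjusted p = 0.751).

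Soat1, which esterifies cholesterol (chromosome 1 from 156428108 to 156474328), had 52.4, 63.5, 47.0 and 51.9 CPM in controls and 74.9, 15.7, 22.6 and 36.7 CPM in Nampt-cKO libraries. As with Elovl3, replicate 1 was above every control and the other 3 were below every control. The log2 fold change was −0.52 (standard error 0.41, edgeR, BH-adjusted p = 0.325). Without Nampt-cKO replicate 1 it was −1.11 (edgeR, BH-adjusted p = 0.00617, in a range over all alternatives of 0.00617 to 0.577). Soat2, the form of liver and gut, was under 2 CPM in every library.

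Plin2 coats lipid droplets in most cells that store lipid. The longer entry, Plin2_2 (chromosome 4 from 86626910 to 86670059), had 125.0, 145, 108 and 133 CPM in controls and 191, 98.8, 103 and 159 CPM in Nampt-cKO libraries. Replicates 1 and 4 were above every control and replicates 2 and 3 below every control, and the log2 fold change was 0.11 (standard error 0.21, edgeR, BH-adjusted p = 0.688). Plin2_1, a shorter entry that overlaps its end (86626854 to 86633209), had 28.2, 43.6, 29.3 and 34.1 CPM in controls and 46.0, 6.12, 15.8 and 34.4 CPM in Nampt-cKO libraries. It did not pass the test (log2 fold change −0.40, standard error 0.49, edgeR, BH-adjusted p = 0.536), and only 40.6% to 65.0% of its reads were unique to it. GENCODE M21 places Plin2 from 86648386 to 86670060, so Plin2_1 lies outside that span and Plin2_2 runs beyond it. Whether the reads of Plin2_1 come from Plin2 was not tested.

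Mc5r, the receptor of the set (chromosome 18 from 68337258 to 68342446), was the least abundant, at 19.2, 20.2, 17.2 and 17.5 CPM in controls and 6.98, 2.60, 4.48 and 2.87 CPM in Nampt-cKO libraries. All Nampt-cKO libraries were below all controls. Its mean fell from 18.5 ± 1.43 to 4.23 ± 2.01 CPM (SD, n = 4), 22.8% of control, and the log2 fold change was −2.13 (standard error 0.30, edgeR, BH-adjusted p = 0.000428).

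The fall was not even across the Nampt-cKO libraries. The median level over the 9 genes was 55.9%, 14.0%, 19.8% and 25.5% of the control mean in Nampt-cKO replicates 1 to 4. Replicate 1 was the highest Nampt-cKO library for 8 of the 9 genes, with Dgat2 as the exception, and replicate 2 was the lowest for 7. Replicates 2 and 3 were below every control for all 9 genes, replicate 4 for 8 and replicate 1 for 6. All 4 Nampt-cKO libraries together were below every control for 22.4% of all genes tested. That share for a single library was not computed, so these counts have no matching background. Replicate 1 also had the lowest summed level of neutrophil markers in its group (33.4 CPM, beside 156 to 729 in the other Nampt-cKO libraries and 3.04 to 3.31 in controls), and hair follicle markers at 8237 CPM, within the control range of 6677 to 8438, beside 1183 to 2920 in the other 3. Krt15, a keratin of follicle stem and basal cells, made up most of the latter sum, at 6838, 1817, 660.5 and 1885 CPM in Nampt-cKO replicates 1 to 4. The part of neutrophils and of hair follicle content in these values was not tested.

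**Figure D3:**
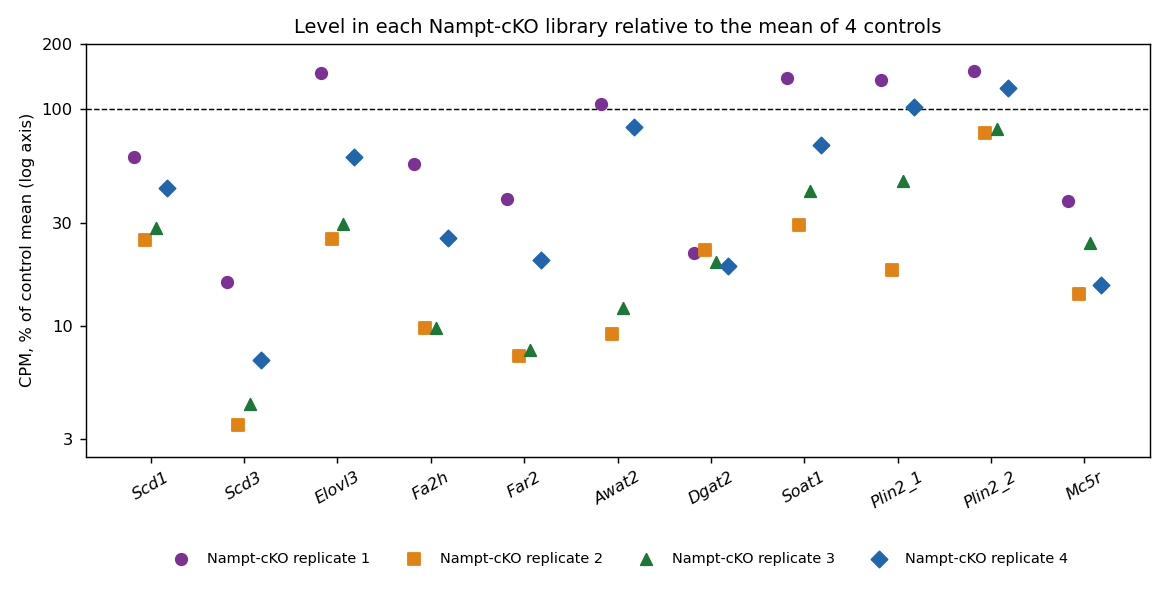
CPM of each gene in Nampt-cKO replicates 1 to 4 as a percent of the mean of 4 controls, on a log axis, with 100% as a dashed line. Dgat2 sits at 18.9% to 22.5% in all 4 libraries, while Awat2 runs from 9.18% in replicate 2 to 106% in replicate 1.

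Per kilobase of exon, the levels in control skin ran from Scd1 (261 RPKM) through Dgat2 (142), Fa2h (84.2), Scd3 (62.7), Plin2_2 (46.2), Far2 (36.3), Elovl3 (30.1), Plin2_1 (24.7), Soat1 (9.66) and Awat2 (9.43) to Mc5r (3.89 RPKM). In this order the ranges of Scd1, Dgat2, Fa2h and Scd3 were apart from each other, those of neighbours from Scd3 down to Plin2_1 overlapped, and so did those of Soat1 and Awat2. In Nampt-cKO skin Scd1 (97.4 RPKM) was still first and Mc5r (0.849 RPKM) last. Plin2_2 (47.3 RPKM) was second, and Scd3 had moved to the last place but one, at 4.63 RPKM, in a range that overlapped that of Awat2 (4.73 RPKM). These RPKM include reads that were not unique to a gene, which were most of those of Scd3.

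Other enzymes and droplet proteins of sebum lipids were read from a list of 26 genes, of which 25 were tested. Of these, 10 were lower, 3 higher and 12 did not pass, with a median log2 fold change of −0.49. Over all genes tested, 22.0% were lower and 23.8% higher. Acsbg1, an acyl-CoA synthetase, fell from 500 ± 38.8 to 83.1 ± 22.5 CPM (SD, n = 4), a log2 fold change of −2.59 (standard error 0.18, edgeR, BH-adjusted p = 1.49e-05). Elovl1 and Elovl6, which extend very long and C16 chains, and Gpam, which starts glycerolipid synthesis, were among the others that fell, with log2 fold changes of −1.15, −1.20 and −1.13. The call of Elovl6 was lost when replicate 2 or 4 of either group was left out (edgeR, BH-adjusted p up to 0.0634). The 3 that passed in the other direction were Scd2, Fabp5, the epidermal fatty acid binding protein, and Agpat2, an acyltransferase of glycerolipid synthesis. Agpat2 was near the threshold (log2 fold change 0.34, standard error 0.12, edgeR, BH-adjusted p = 0.0494) and passed in only 9 of 24 alternatives, which gave adjusted p = 0.0267 to 0.163. Fabp5 was at 319, 361, 304 and 303 CPM in controls and at 481, 2465, 2138 and 863 CPM in Nampt-cKO libraries, so the libraries with the highest Fabp5 were those with the lowest Scd1.

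The genes listed under fatty acid synthesis fell in part, and not all of them are steps of it. Of 13 tested, 7 were lower, 0 higher and 6 did not pass, with a median log2 fold change of −0.33. Without Nampt-cKO replicate 1, 8 were lower and 2 higher, and limma-voom with sample quality weights had 6 lower and 1 higher. Pnpla3, an acyltransferase and lipase of lipid droplets, fell from 58.9 ± 5.89 to 6.92 ± 2.47 CPM (SD, n = 4), a log2 fold change of −3.09 (standard error 0.23, edgeR, BH-adjusted p = 1.93e-05). Me1, malic enzyme and a source of NADPH, was at 230.0 ± 7.70 CPM in controls and 68.5 ± 16.6 CPM in Nampt-cKO skin. Fasn, fatty acid synthase itself, fell less, from 443 ± 25.3 to 330.1 ± 16.4 CPM, a log2 fold change of −0.42 (standard error 0.07, edgeR, BH-adjusted p = 0.00146). Cholesterol synthesis was mixed, with 7 of 22 genes lower, 5 higher and 10 not past the test, and a median of 0.03. Its number higher was near the share over all genes tested, which was 23.8% higher and 22.0% lower. Leaving out a library moved the number called from 12 to between 9 and 15, with 8 higher and 7 lower without Nampt-cKO replicate 1, and 5 lower on dropping control 1, 2 or 3, or the Nampt-cKO library numbered 4.

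Of 14 genes of sebocyte identity and its regulators, 6 were lower, 2 higher and 6 did not pass, with a median log2 fold change of −0.41. The shares over all genes tested were 22.0% lower and 23.8% higher. Mgst1, a microsomal glutathione transferase, was at 109, 121, 113 and 94.8 CPM in controls and 78.7, 63.5, 71.0 and 62.7 CPM in Nampt-cKO libraries, a log2 fold change of −0.67 (standard error 0.10, edgeR, BH-adjusted p = 0.000729). Lrig1 and Rxra also fell, and were called in all 24 alternatives. Prdm1 (edgeR, BH-adjusted p = 0.0277) and Gata6 (edgeR, BH-adjusted p = 0.0447) passed less firmly, in 20 and 16 of 24 alternatives. The number lower in this list dropped from 6 to 4 on dropping control 1, 2 or 4, or the Nampt-cKO library numbered 3. The 2 that rose were Myc, a growth factor response gene known to drive sebocyte differentiation in mouse epidermis (88.1 ± 8.34 to 179 ± 36.3 CPM, SD, n = 4), and Sox9, a factor of the hair follicle and its stem cells (101 ± 11.4 to 207 ± 46.2 CPM, SD, n = 4). Krt79, a keratin of the gland's duct, was among those that did not pass.

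Among 12 melanocortin ligands, other receptors and accessory genes, 7 were tested, of which 2 were higher, 1 lower and 4 did not pass. For all genes tested the shares were 23.8% higher and 22.0% lower. Mc3r and Mc4r had 0 reads in all 8 libraries. Mc2r, the receptor of adrenocorticotropic hormone, was near 1 CPM in controls and fell (1.05 ± 0.34 to 0.22 ± 0.19 CPM, SD, n = 4, log2 fold change −2.21, standard error 0.61, edgeR, BH-adjusted p = 0.0146). Cpe, a carboxypeptidase that trims the peptides of proopiomelanocortin, rose in all 4 Nampt-cKO libraries, from 236 ± 11.7 to 423 ± 27.3 CPM. The entry named a, the nonagouti gene that encodes the melanocortin antagonist agouti signaling protein, was at 1.34, 1.54, 1.39 and 1.59 CPM in controls and at 22.3, 17.5, 28.8 and 42.9 CPM in Nampt-cKO libraries. It rose in every Nampt-cKO library, and the log2 fold change was 4.25 (standard error 0.29, edgeR, BH-adjusted p = 1.21e-05).

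**Figure D4:**
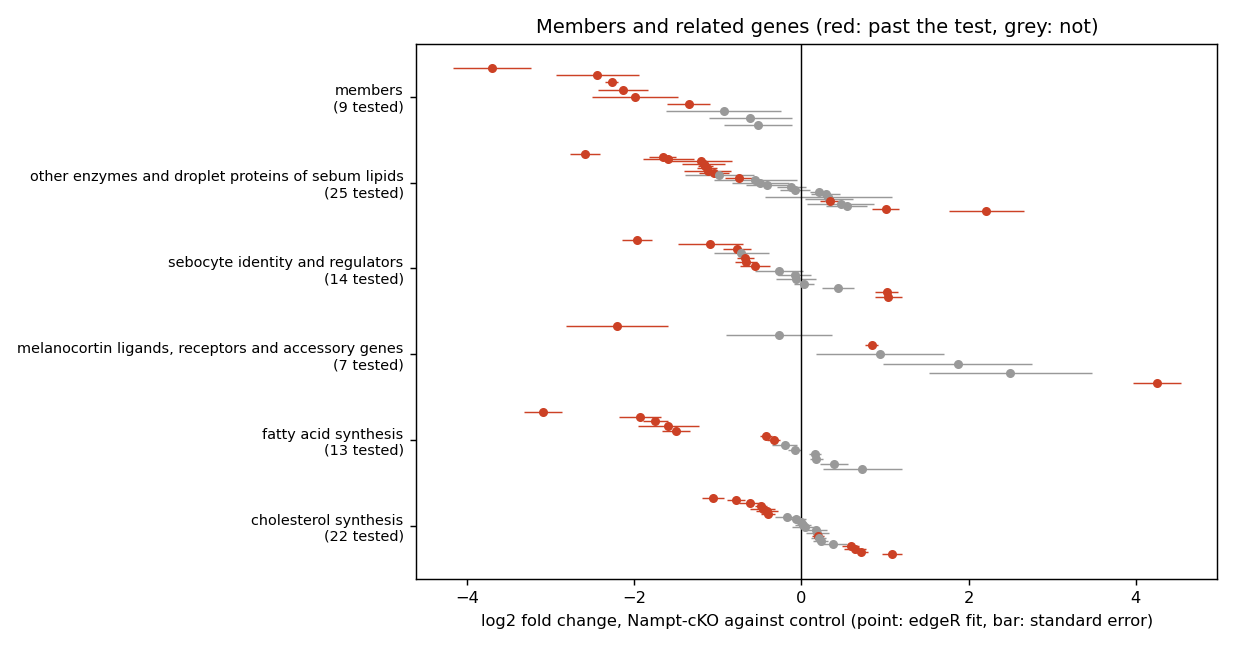
Log2 fold change of each tested gene, Nampt-cKO against control, with its standard error, for the 9 genes and 5 lists of related genes, in red where the edgeR test was passed and in grey where it was not. The 9 genes all lie below 0, while each of the other lists but that of fatty acid synthesis has red points on both sides.

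Several cell types of skin share these genes, and their markers were read beside them. White adipocyte markers summed to 221 to 677 CPM in controls and 231 to 846 CPM in Nampt-cKO libraries, with 3 of 12 lower (Lep, Plin1 and Car3), 0 higher and 9 not past the test. The calls of Lep, Plin1 and Car3 held in 12, 11 and 13 of the alternatives. Of 5 brown adipocyte markers tested, 1 rose (Dio2), 1 fell (Slc27a2) and 3 did not pass. Skeletal muscle markers varied widely within both groups, from 176 to 2395 and from 127 to 5568 CPM, and 0 of 8 passed the test. Interfollicular keratinocyte markers had 2 higher (Krt14 and Itgb4), 2 lower (Krt10 and Lor) and 4 not past the test, neutrophil markers 6 of 6 higher, macrophage markers 4 higher, 1 lower and 3 not past the test, and hair follicle markers 1 lower (Krt31) and 10 not past the test. Beside these counts, 22.0% of all genes tested were lower and 23.8% higher. The white adipocyte markers that were lower came near those shares. So did the brown adipocyte and interfollicular keratinocyte markers in both directions. The part of these cell types in the falls above was not tested.

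The genes nearest to the average pattern of the 9 over the 8 libraries, by the root mean square difference of log2 CPM deviations from the control mean, were Fam171b (0.14), Sec14l4 (0.145), Isoc2b (0.154), Mgll (0.156), Col4a5 (0.195), Ces4a (0.224), Kazald1 (0.225) and Espn (0.235). Mgll, monoacylglycerol lipase, which releases the last fatty acid of a glyceride, was the most abundant of them, at 556, 752, 519 and 479 CPM in controls and at 259, 80.5, 84.7 and 160 CPM in Nampt-cKO libraries. It had the same order of Nampt-cKO libraries as Scd1 and Scd3, with replicate 1 highest and replicate 2 lowest. These 8 were picked for their likeness, and their values are a description.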

How the data were processed

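Poly-A selected RNA of whole skin, in 4 control and 4 Nampt-cKO libraries, was sequenced on an Illumina instrument by a service provider. The authors deposited, per gene and library, whole-number counts of total exon, unique exon, intron and gene reads, which are not normalized, and RPKM, which they made from exon reads and exon length. Of the exon counts above 0, 62.4% are even, so that both ends of a pair may have been counted. The submitters' notes name GRCm38 (mm10), while aligner, counter and strand setting are not stated in the labels or methods read. Columns of the authors' own fold changes and p-values were not used. The labels number the libraries of a group without naming the animal of each, so p-values reflect only how these libraries vary, which may be technical.

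Total exon counts of all genes entered edgeR 4.0.16 under R 4.3.3 (TMM, filterByExpr, quasi-likelihood F test, BH adjustment over 17286 genes, threshold 0.05). The Scd3 to Scd1 ratio was tested by exact permutation in SciPy 1.17.1. CPM were TMM-normalized. A prior count of 2 was added for log2 CPM. Alternatives were other scaling factors, DESeq2 1.42.0, limma-voom (limma 3.58.1), filters, limma on log2 RPKM with pseudocounts of 0.1 and 1, counts of unique exon or of gene reads, a replicate block, a robust fit, a skeletal muscle covariate, dropping the 20 most abundant genes, and dropping each library, 24 in all. Counts of 4 against 4 libraries were also simulated from the fitted dispersions, with far fewer genes changed than the 45.7% called here. In them 6.9% of 174 calls were false, above the rate that the threshold of 0.05 aims at. With so unlike a share of changed genes, this rate cannot be carried over to the real data. Positions are those of the table, counted from 1, with GENCODE M21 for strands and coding sequence and RefSeq for promoters. The 10 genes and the 12 lists were chosen with earlier results of these data known. Named beside the 10 genes were their relatives, Nampt and the 8 nearest profiles among genes of at least 1 CPM on average. From each list, up to 4 genes with the smallest p, called or not, and the most abundant gene were added. Genes named as further members of a count were named after their values were seen. Values of some list genes are not reported here.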

Additional observations from a re-analysis of the deposited data

Results flagged for a closer look

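In groups of 4 libraries, the highest or lowest was compared with the rest by Dixon's gap criterion at its 95% critical value. This singled out 9 of 176 groups examined, and chance alone singles out about 1 in 20. None was in the 9 sebaceous gland lipid genes. Scd2 had 165 CPM in control replicate 4, beside 203 to 207 in the other controls. Plin3, a droplet protein, had 116 CPM in control replicate 3, beside 106 to 107. Isoc2b had 8.54 CPM in control replicate 4, beside 9.64 to 9.86. Mc1r, the melanocortin receptor of pigment cells, had 2.08 CPM in Nampt-cKO replicate 1, beside 0.33 to 0.57 in the other Nampt-cKO libraries. Lep had 0.573 CPM in Nampt-cKO replicate 4, beside 0.124 to 0.148. Fabp4 had 52.0 CPM in control replicate 4, beside 103 to 113. Dio2 had 46.0 CPM in Nampt-cKO replicate 4, beside 23.0 to 24.8. Lor had 4811 CPM in control replicate 3, beside 3900 to 3967. Myh1, a muscle myosin, had 1045 CPM in Nampt-cKO replicate 3, beside 24.3 to 191.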

How the results depend on the processing

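Of the 9 genes, Scd1, Scd3, Fa2h, Far2, Dgat2 and Mc5r were lower at a BH-adjusted p under 0.05 in all 24 alternatives. The count called was 6 to 8 when a library was left out (8 in the absence of Nampt-cKO replicate 1), 7 with numbers as a replicate block and 8 with the skeletal muscle covariate. It was 9 with limma-voom with sample quality weights, the only form of limma-voom run. The share called over all genes tested moved too, from 45.7% in the main fit. It was 50.7% with limma-voom, 49.2% with the muscle covariate and 43.5% with the replicate block. Without Nampt-cKO replicate 1 it was 50.8%, and without each other library in turn 36.8% to 42.4%. Awat2 passed with limma-voom (log2 fold change −1.66), the replicate block (−1.59) and the muscle covariate (−1.55), Elovl3 with limma-voom (−1.16), the muscle covariate (−0.98) and without Nampt-cKO replicate 1 (−1.39), and Soat1 with limma-voom (−0.91) and without Nampt-cKO replicate 1 (−1.11). Correlations between control and Nampt-cKO libraries were −0.054 to 0.179 for shared replicate numbers and −0.23 to 0.14 for unlike numbers. The ranges overlap, and with so few shared numbers they cannot settle whether the numbers pair the libraries. The Scd3 to Scd1 log2 ratio differed by −2.70 to −2.36 without each library in turn (exact permutation p = 0.0571, the smallest that 3 against 4 allow) and by −2.50 with the replicate block (exact p = 0.125, the smallest that 4 pairs allow). Melanocortin genes past the test were 5 with limma-voom beside 3. Over all named genes, 1986 of 2098 values kept direction and side of the threshold, 50 passed newly, 40 no longer passed and 22 changed sign, 0 of these past the test. Without each library in turn, their log2 fold changes were −0.09 to 0.24 for Plin2_2 (and −0.02 with limma on RPKM), −0.30 to 0.09 for Cst6, −0.13 to 0.74 for Fabp4, −0.53 to 1.98 for Myh1, −0.13 to 1.67 for Atp2a1, −1.35 to 0.31 for Acta1, −0.23 to 0.04 for Dgat1, −0.22 to 1.08 for Soat2 and −0.40 to 0.17 for Plin4. Depth limits genes such as Mc2r, which rested on 208 control and 45 Nampt-cKO reads. The cause of these changes was not tested.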
